A study of Mus musculus with 6 samples.

Results

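The Bcl-2 family, the caspases and the other genes of the apoptosis machinery were examined in mouse embryo fibroblasts lacking p38α (KO, 3 cultures) and in wild-type fibroblasts (WT, 3 cultures). The genes were chosen by symbol, through the accession that the array's annotation gives for each probe. Of 40 listed genes 37 had a probe, 1 each, among 10634 named genes and 19801 gene probes. For Casp8, Casp9 and Tradd no probe was matched, and they were not analysed here. KO cells carried the p38α-/- genotype and WT cells the wild-type gene. Both were of a mixed 129/svev and C57Bl/6 background, had become immortal under a 3T3 passage schedule and stably expressed transduced H-RasG12V, and were grown for 72 h. Each culture was read on 1 CodeLink array. The labels speak of biological replicates without saying whether the cultures of a genotype came from separately derived lines, so the p-values measure the spread between these cultures. All cultures compared were of cells that had survived immortalisation and were described as stably expressing H-RasG12V. Whether its level was equal between the groups was not tested, and no cells without H-RasG12V were analysed here.

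Apoptosis in mammals runs along 2 converging routes. In the mitochondrial route, BH3-only proteins sense damage and act on the Bcl-2 family, whose pro-apoptotic multidomain members open the outer mitochondrial membrane while Bcl-2, Bcl-xL, Bcl-w and Mcl-1 hold it closed. Cytochrome c then leaves the mitochondria and assembles with Apaf-1 into the apoptosome, which activates initiator and then executioner caspases. In the death receptor route, ligands such as Fas ligand recruit adaptors and caspase-8, with c-FLIP as a decoy. Inhibitor of apoptosis proteins restrain these steps, and Smac, released from mitochondria, relieves that restraint. p38α is a stress-activated kinase, and its gene is Mapk14.

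Levels are given as normalized log2 signal (background-corrected with an offset and quantile normalized, so that 1 unit is about a doubling for bright probes and stands for more than that for dim ones). "Above background" is the scanner software's own mark for a spot. Differences are KO minus WT, tested with limma over 19608 gene probes, and a gene was called when its Benjamini-Hochberg adjusted p was under 0.05. The count of gene probes above background ran from 8677 on KO replicate 3 to 10232 on KO replicate 1. Local background was a median of 61 intensity units on KO replicate 3 and 49 to 53 on the other arrays. Arrays correlated across probes at 0.986 to 0.996 between KO cultures, 0.951 to 0.963 between the groups and 0.996 to 0.997 between WT cultures. Mapk14 was at 6.12, 6.16 and 5.94 in KO replicates 1, 2 and 3, against 6.95, 7.01 and 7.08 in WT, and was above background on 1 KO array and all 3 WT arrays. It differed by -0.94 (limma adjusted p = 7.84e-05). The position of its probe relative to the deleted part was not analysed here. Of 10 fibroblast markers measured 6 were above background on all 6 arrays, while Thy1, Lum, Fap and Postn were near background on every array. All 5 endothelial, 4 of 5 leukocyte and 6 of 8 epithelial markers were near background throughout. The summed background-subtracted intensity of the fibroblast markers was 24221.8 to 31506.7 in KO and 14367.2 to 17002.5 in WT. These sums were not scaled between arrays, and intensities were higher over the KO arrays as a whole. After normalization 3 of the 10 fibroblast markers had a positive difference and 7 a negative one (median -0.08). Of these 10 markers 2 were called higher in KO and 2 lower. The sum of the epithelial markers was 128 to 178 in KO and 35.9 to 51.6 in WT. That of the endothelial markers was 12.1 to 25.0 in KO and 12.5 to 20.2 in WT, and that of the leukocyte markers 16.4 to 31.9 in KO and 18.3 to 29.8 in WT. The epithelial marker above background on all 3 KO arrays was Krt18, and the part of these markers in the results was not tested. In whole cultures a smaller fraction of expressing cells and less RNA per cell cannot be told apart.

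Of the apoptosis genes 2 were higher in KO and 7 lower, of 37 measured, while 28 did not pass. Bok, a pro-apoptotic Bcl-2 relative, was 3.82-fold higher and the inflammatory caspase gene Casp4 2.46-fold higher on this offset scale. The authors' value table, which has no offset, gave larger log2 differences, 2.54 against 1.93 for Bok and 2.05 against 1.30 for Casp4. The lower genes were Birc2, Diablo, Cradd, Casp6, Casp2, Parp1 and Bid, by 1.27-fold to 1.5-fold. Before normalization only 3 of these 7, Birc2, Diablo and Cradd, were separate between the groups. Over the whole array 22.5% of the probes were called, 10.4% higher and 12.1% lower, so the share of apoptosis genes called, 24.3%, was close to that of all probes. The median difference was -0.03 over the 37 genes and -0.01 over all probes tested. Of the 37 genes 24 were above background on all 6 arrays, 4 on some and 9 on none. Among the 24, 37.5% were called, against 41.0% of all probes above background on every array. For 22 of the 37 genes the 2 groups were fully separate, 10 with KO above WT and 12 with KO below, against 36.0% of all probes (16.7% above and 19.3% below). For those above background on every array it was 17 of 24, against 54.9% of such probes. Bok, Casp4 and Diablo kept their calls under all 18 other settings tried, and the other 6 lost theirs under at least 1. Without KO replicate 3, 8 genes were higher and 8 lower, while the share of all probes called was then 29.7%. With the arrays scaled to a common median, 3 were higher and 2 lower, while 12.2% of all probes were then higher and 6.86% lower.

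**Figure D1:**
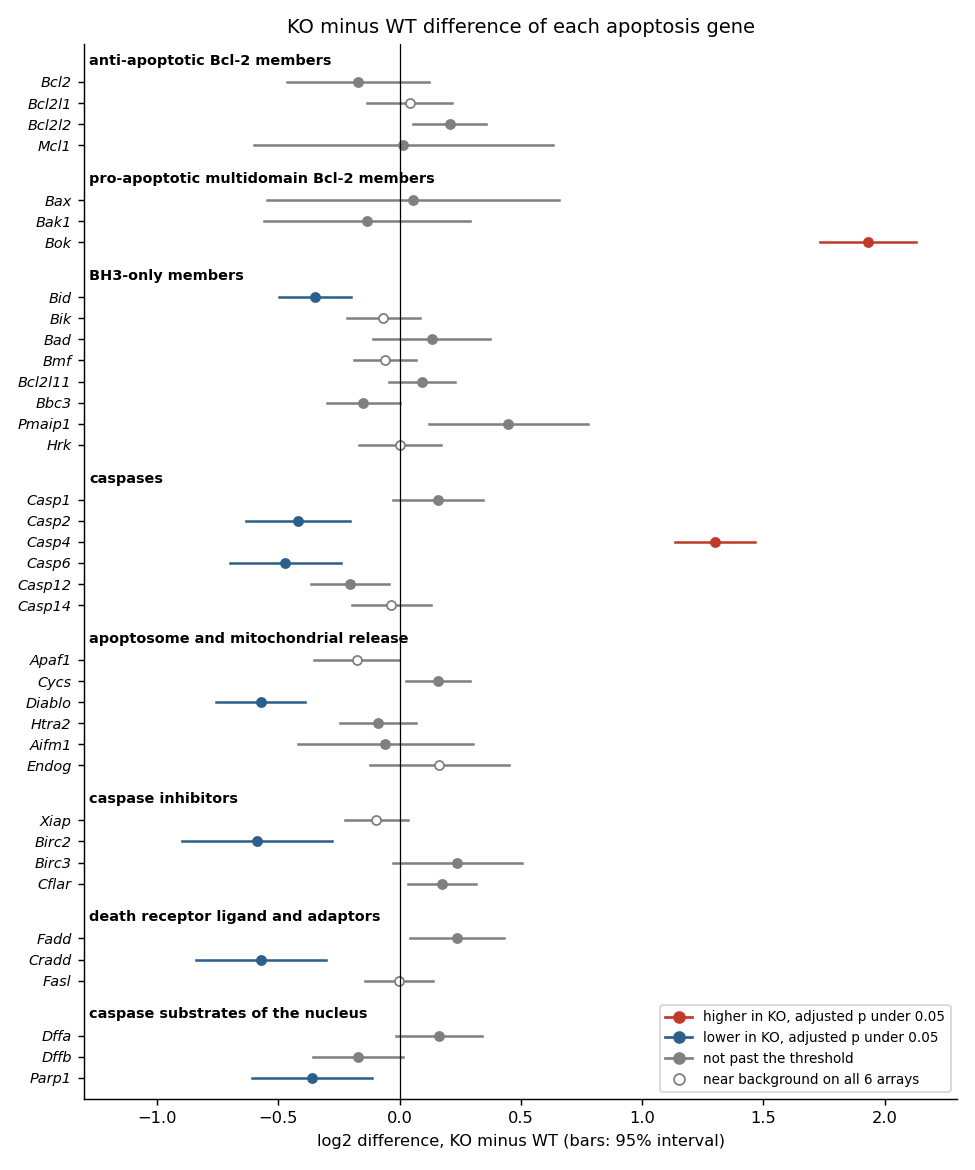
Log2 difference, KO minus WT, of the 37 apoptosis genes measured, in rows grouped by role, with bars for the 95% interval of the limma fit (3 KO and 3 WT arrays). Red marks the 2 genes called higher in KO, blue the 7 called lower and grey the 28 not called; open circles are the 9 genes near background on all 6 arrays.

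The sequences around the start of Bok, Casp4 and Diablo are shown because these were the 3 genes whose calls did not depend on the processing. Each runs from 250 bases before to 50 bases after a transcript start, 5′ to 3′ on the gene's strand, from RefSeq on GRCm38.p6. Capitals mark motifs found on either strand. Those searched were the GC box (GGGCGG), a loose form of the NF-κB site (GGGA, then 4 bases of any kind, then CC), the CCAAT box by its letters, the TATA box (TATAAA), the E-box (CACGTG), the AP-1 site (TGANTCA) and the cyclic AMP response element (TGACGTCA). A GC box can overlap a loose NF-κB match.
Bok: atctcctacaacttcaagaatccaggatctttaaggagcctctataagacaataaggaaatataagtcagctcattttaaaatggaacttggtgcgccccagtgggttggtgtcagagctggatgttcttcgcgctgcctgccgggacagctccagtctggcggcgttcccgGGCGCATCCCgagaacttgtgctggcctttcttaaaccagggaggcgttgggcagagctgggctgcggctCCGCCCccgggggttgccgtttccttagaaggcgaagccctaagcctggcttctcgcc
Casp4: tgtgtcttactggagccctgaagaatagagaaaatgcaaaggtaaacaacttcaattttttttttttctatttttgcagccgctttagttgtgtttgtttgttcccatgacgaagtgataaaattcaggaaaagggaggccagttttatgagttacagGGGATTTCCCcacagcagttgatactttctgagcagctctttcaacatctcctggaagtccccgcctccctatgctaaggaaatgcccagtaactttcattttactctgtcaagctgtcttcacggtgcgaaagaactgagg
Diablo: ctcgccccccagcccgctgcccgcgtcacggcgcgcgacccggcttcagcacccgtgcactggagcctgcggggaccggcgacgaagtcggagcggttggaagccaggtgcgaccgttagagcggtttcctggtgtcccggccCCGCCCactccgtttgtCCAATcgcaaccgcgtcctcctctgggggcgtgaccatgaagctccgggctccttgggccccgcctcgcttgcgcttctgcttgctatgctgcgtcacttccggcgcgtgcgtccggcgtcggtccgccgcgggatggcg
The Bok sequence is chr1:93685325-93685624 on the plus strand, the Casp4 sequence chr9:5308599-5308898 on the plus strand, and the Diablo sequence chr5:123524115-123524414 on the minus strand. Counting the start as 0, the Bok sequence held a loose NF-κB match from -78 and a GC box from -8. The Casp4 sequence held 1 loose NF-κB match, from -92, and the Diablo sequence a GC box from -107 and a CCAAT box from -90. The Bok sequence was 56.3% G and C with 16 CG pairs. The Casp4 sequence was 42.0% G and C with 5 CG pairs, and that of Diablo 71.7% with 42. For Casp4 the first of 2 listed starts was used. Over 27025 genes with such a sequence, taking the first start of each, 35.9% held a GC box, 20.5% a loose NF-κB match, 37.9% a CCAAT box, 14.2% a TATA box, 7.24% an E-box, 7.93% an AP-1 site and 1.88% a cyclic AMP response element. Of the 36 apoptosis genes with a sequence, 23 held a GC box, 11 a loose NF-κB match, 10 a CCAAT box, 2 a TATA box, 3 an E-box, 0 an AP-1 site and 2 a cyclic AMP response element. Their median G and C content was 61.8%, against 52.7% over all of these genes. These are matches of letters in a short window.

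The 3 pro-apoptotic multidomain genes differed from one another. Bok, whose protein is related to Bax and Bak, had normalized log2 signals of 8.94, 8.97 and 9.24 in KO replicates 1, 2 and 3, against 7.11, 7.11 and 7.13 in WT. All 3 KO cultures lay far above all 3 WT cultures, which were nearly identical to each other. Means were 9.05 ± 0.17 in KO and 7.12 ± 0.01 in WT (SD, n = 3 each). They differed by 1.93 (SE 0.09, limma adjusted p = 3.52e-06), the 124th highest of all probes tested. Its background-subtracted intensities, before any scaling between arrays, were 514, 540 and 543 in KO and 74.5, 79.2 and 72.9 in WT. With offset 0 and the same scaling the difference was 2.44, and with median scaling and the offset it was 2.08.

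Bax, the pore-forming effector that translocates to mitochondria, was at 9.28, 9.48 and 10.38 in KO and 9.50, 9.71 and 9.78 in WT. KO replicate 3 was above every WT culture, and KO replicates 1 and 2 were below all 3. The difference was 0.05, with a 95% interval of -0.55 to 0.66 (adjusted p = 0.928 in limma). Without KO replicate 3 it was -0.28 (adjusted p = 0.0485), the only setting that gave a call. The difference was also negative, but not called, without WT replicate 1 (-0.03) and with array weights (-0.20). Bak1, the effector resident in the mitochondrial membrane, was at 8.48, 8.35 and 9.0 in KO and 8.52, 8.99 and 8.73 in WT. Again KO replicate 3 was above every WT culture, though narrowly, and KO replicates 1 and 2 were below all 3. The difference was -0.13 (95% interval -0.56 to 0.29), and without KO replicate 3 it was -0.33 (adjusted p = 0.0621 in limma).

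None of the 4 anti-apoptotic Bcl-2 genes passed the threshold in limma, and 1 had an unadjusted p under 0.05. Bcl2l2, which encodes Bcl-w, was at 8.47, 8.29 and 8.35 in KO and 8.14, 8.22 and 8.13 in WT. Its groups did not overlap, but the difference of 0.21 (95% interval 0.05 to 0.36) had an adjusted p of 0.0607, and 0.0393 without KO replicate 3. Mcl1, whose short-lived protein binds BH3-only partners, was at 9.41, 9.34 and 8.32 in KO and 9.07, 8.88 and 9.08 in WT. Here KO replicates 1 and 2 were above every WT culture and KO replicate 3 below all of them. The difference was 0.02 (95% interval -0.60 to 0.63), and without KO replicate 3 it was 0.37 (adjusted p = 0.00339). Bcl2 itself was at 7.04, 6.95 and 6.53 in KO and 7.04, 7.03 and 6.97 in WT, again with the lowest value on KO replicate 3, and differed by -0.17 (95% interval -0.46 to 0.12). The Bcl2l1 probe, for Bcl-xL, was near background on all 6 arrays, and its difference of 0.04 says nothing of the gene itself.

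**Figure D2:**
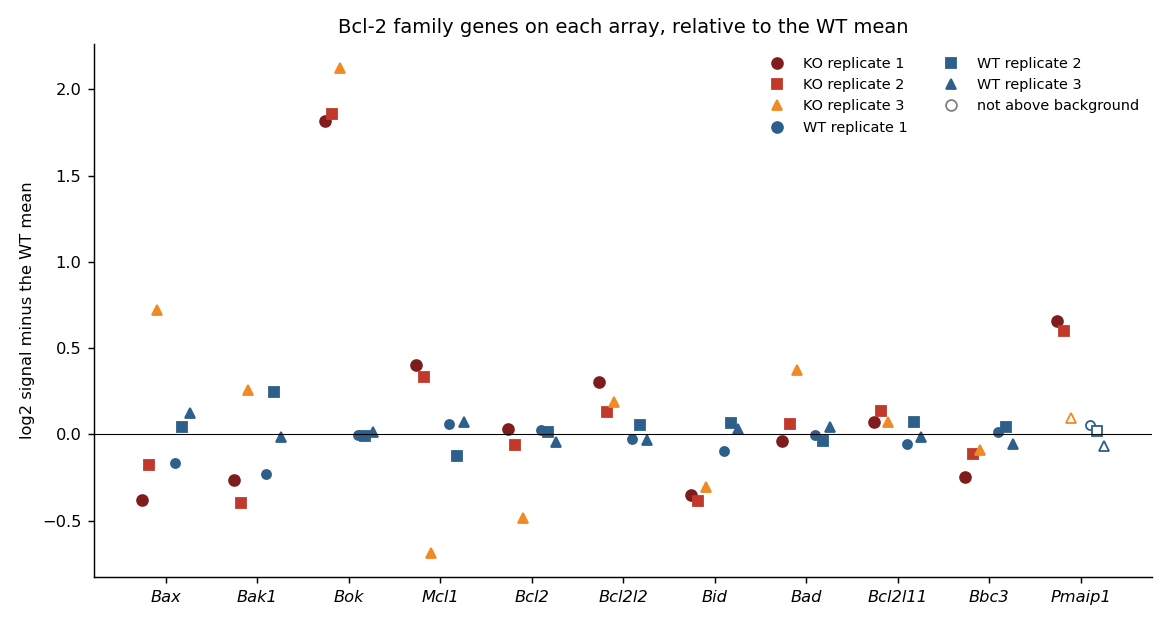
Normalized log2 signal minus the WT mean for 11 Bcl-2 family genes on each array, KO replicates left of WT replicates for each gene; open symbols were not above background. KO replicate 3 (orange) lies above the other KO arrays for Bax, Bak1, Bok, Bid, Bad and Bbc3. It lies below them for Mcl1, Bcl2 and Pmaip1 and between them for Bcl2l2, while Bok is high on all 3 KO arrays.

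KO replicate 3 set several of these values. Against the mean of the other 2 KO arrays, its log2 signal was 1.00 higher for Bax, 0.59 higher for Bak1 and 0.28 higher for Bok, and 1.05 lower for Mcl1 and 0.47 lower for Bcl2. For the other Bcl-2 family genes above background on any array, it was 0.36 higher for Bad, 0.09 for Bbc3 and 0.07 for Bid. It was 0.53 lower for Pmaip1 and 0.03 lower for Bcl2l2 and Bcl2l11. Among the 24 genes above background on every array, 6 (25%) lay more than 0.4 away from the other KO arrays on KO replicate 3, against 20.5% of all such probes. They were Bax, Bak1, Mcl1, Bcl2, Aifm1 and Birc2. The same count was 2 on KO replicate 1, 1 on KO replicate 2 and 0 on each WT array. Of all such probes it was 6.24% on KO replicate 1, 4.08% on KO replicate 2 and 0.60% to 1.0% on the WT arrays. Probes outside the apoptosis genes stood apart on that array as well, and the part of its higher background in this was not tested.

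Of the 8 BH3-only genes 1 was lower, none was higher, and 3 (Bik, Bmf and Hrk) were near background on every array. Bid, which links death receptors to mitochondria once caspase-8 has cleaved its protein, was at 7.53, 7.5 and 7.58 in KO and 7.78, 7.95 and 7.91 in WT. All KO values were below all WT values, with a difference of -0.35 (SE 0.06, limma adjusted p = 0.00602). Before normalization its intensities overlapped, at 155, 146 and 134 in KO and 145, 183 and 159 in WT. Background-subtracted intensities were higher over the KO arrays as a whole, with medians over all gene probes of 18.8 to 21.7 in KO and 15.9 to 17.5 in WT. The call of Bid was lost with median scaling (-0.21, adjusted p = 0.126), offset 0 (-0.46, 0.0735) and the authors' table (-0.44, 0.111), and kept with that table floored at 1 (-0.44, 0.037).

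Pmaip1, which encodes Noxa, a partner of Mcl-1, was at 6.62, 6.56 and 6.06 in KO and 6.02, 5.98 and 5.90 in WT. It was above background on KO replicates 1 and 2 only. The difference of 0.45 just missed the threshold (95% interval 0.12 to 0.78, adjusted p = 0.0595) and passed it without KO replicate 3 (0.64, adjusted p = 2.86e-05). With no background correction it passed as well (0.53, adjusted p = 0.0112). Bcl2l11, which encodes Bim, was at 6.80, 6.87 and 6.80 in KO and 6.67, 6.80 and 6.72 in WT, a difference of 0.09 (95% interval -0.04 to 0.23). Bad, whose protein is held inactive by phosphorylation, was at 6.66, 6.76 and 7.07 in KO and 6.69, 6.66 and 6.74 in WT, a difference of 0.13 (95% interval -0.11 to 0.37). Bbc3, which encodes Puma, was at 6.20, 6.34 and 6.36 in KO and 6.46, 6.50 and 6.39 in WT. Its KO values lay just below its WT values, but the difference of -0.15 did not pass (adjusted p = 0.163).

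**Figure D3:**
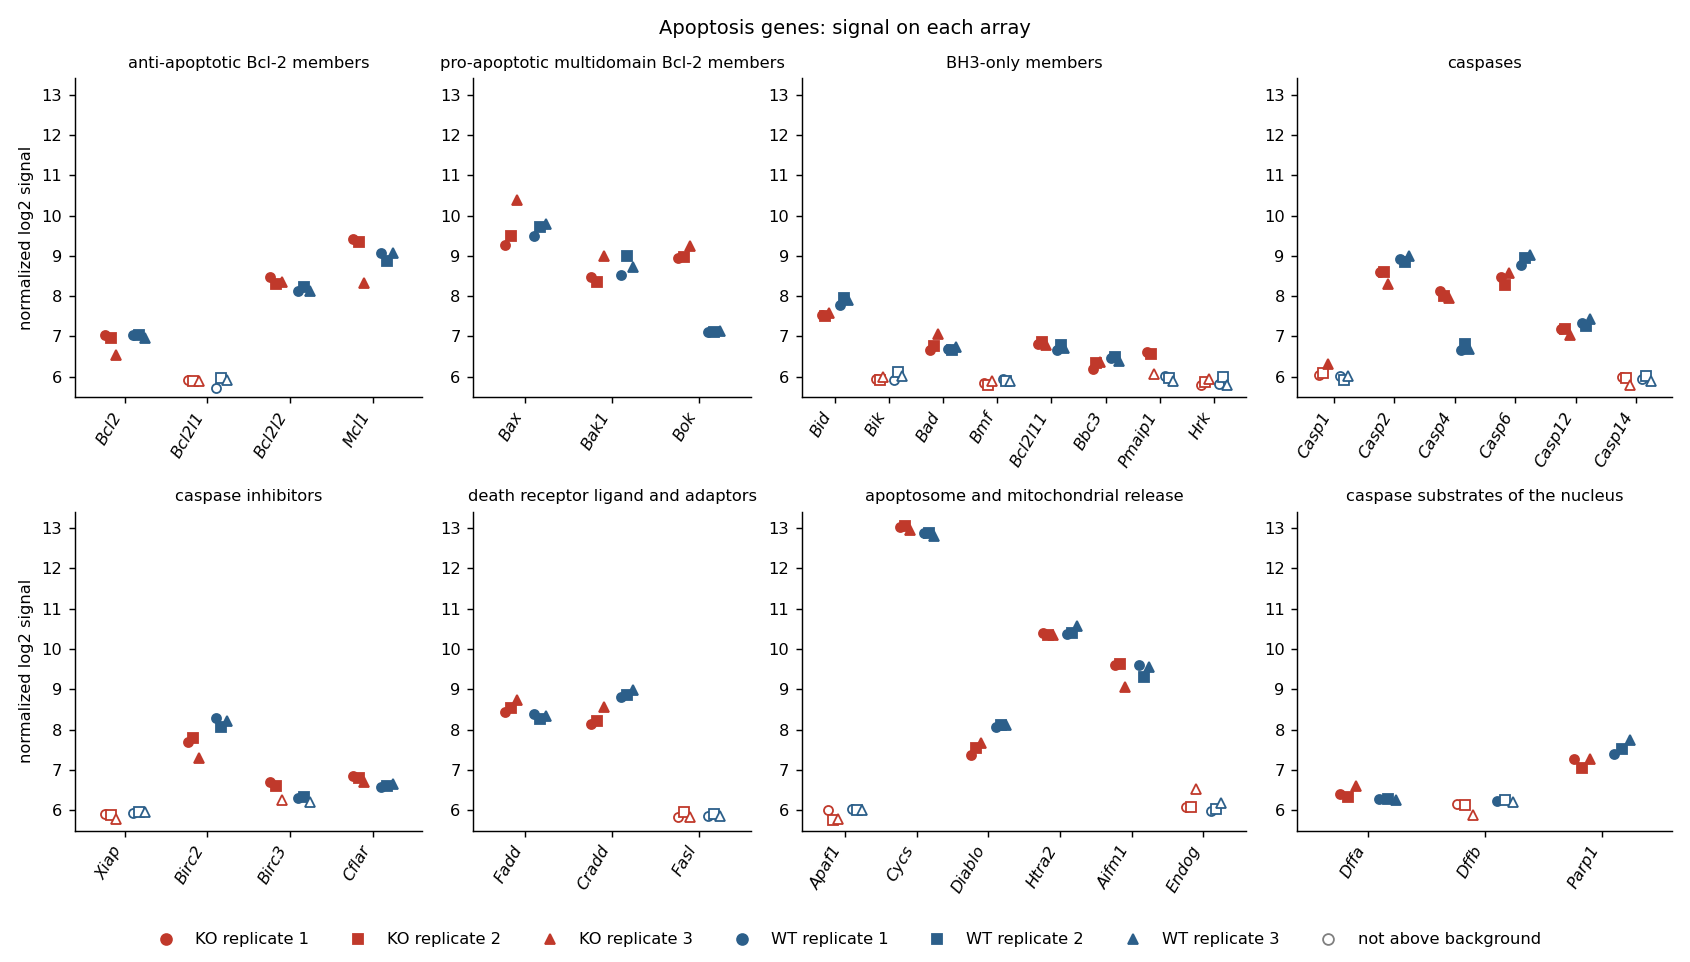
Normalized log2 signal of the 37 apoptosis genes on each array, in panels by role, KO (red) left of WT (blue); open symbols were not above background. Bok and Casp4 stand clear of WT on all 3 KO arrays, while most other genes lie within 1 log2 unit between the groups.

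Of the 6 caspase genes measured 1 was higher, 2 were lower and 3 did not pass. Casp4 encodes the mouse caspase-11, which cleaves gasdermin D in response to intracellular lipopolysaccharide. It was at 8.12, 8.02 and 7.95 in KO and 6.66, 6.82 and 6.70 in WT, with every KO culture more than 1 unit above every WT culture. The difference was 1.30 (SE 0.07, limma adjusted p = 1.06e-05), the 270th highest of all probes. Its background-subtracted intensities were 266, 241 and 190 in KO, against 41.1, 55.5 and 42.6 in WT. With offset 0 the difference was 1.92. Casp4 lies between Casp1 and Casp12 on chromosome 9, with no other protein-coding gene in between in GRCm38.p6. Casp1, the caspase that matures interleukin-1β, was at 6.04, 6.10 and 6.31 in KO and 6.03, 5.93 and 6.01 in WT, above background on KO replicate 3 alone, and was not called (0.16, adjusted p = 0.244). Casp12, a caspase linked to the endoplasmic reticulum, was at 7.17, 7.17 and 7.03 in KO and 7.32, 7.25 and 7.42 in WT. It differed in the other direction from Casp4 by -0.21, which did not pass (95% interval -0.37 to -0.04, adjusted p = 0.0783).

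Casp6, an executioner caspase that cleaves lamins, was at 8.48, 8.27 and 8.58 in KO and 8.78, 8.94 and 9.03 in WT. KO values were below WT values throughout, by 0.47 on the log2 scale (difference -0.47, SE 0.10, limma adjusted p = 0.0108). Casp2, an initiator caspase activated in the PIDDosome, was at 8.61, 8.61 and 8.31 in KO and 8.93, 8.85 and 9.0 in WT. It differed by -0.42 (SE 0.09, adjusted p = 0.0139), with KO replicate 3 lowest. Before normalization both genes overlapped between the groups. Background-subtracted intensities of Casp6 were 356, 298 and 322 in KO and 341, 416 and 393 in WT. Those of Casp2 were 397.9, 401.4 and 258.5 in KO and 383.6, 388 and 384.3 in WT. For Casp2, KO replicates 1 and 2 were thus above every WT culture before normalization, and KO replicate 3 was below. Casp6 missed the threshold with median scaling (-0.30, adjusted p = 0.0501), and so did Casp2 (-0.23, 0.379). Both also missed it with offset 0 and with the authors' table, floored or not (adjusted p = 0.0507 to 0.0999 for Casp6 and 0.102 to 0.219 for Casp2). Without WT replicate 3 the adjusted p was 0.0523 for Casp6 and 0.0667 for Casp2, and without WT replicate 1 it was 0.0547 for Casp2. Casp14, a caspase of the epidermis, was near background on every array.

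Among genes of the apoptosome and of mitochondrial release, 1 of 6 was lower and none was higher. Diablo encodes Smac, which displaces inhibitor of apoptosis proteins from caspases. It was at 7.38, 7.54 and 7.67 in KO and 8.07, 8.13 and 8.11 in WT. No KO culture reached the lowest WT culture, and the difference was -0.57 (SE 0.08, limma adjusted p = 0.00134), or 1.49-fold lower. Its background-subtracted intensities also did not overlap, at 133, 153 and 147 in KO and 191, 214 and 189 in WT. Other processing of the same 6 arrays gave differences between -0.74 and -0.44. The call was kept narrowly with the authors' table (adjusted p = 0.0453, floored 0.0233) and with offset 0 (0.0246).

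Cycs, which encodes cytochrome c, was at 13.03, 13.05 and 12.95 in KO and 12.87, 12.87 and 12.81 in WT. The groups did not overlap after normalization, but they did before it. The difference of 0.16 missed the threshold (95% interval 0.03 to 0.29, adjusted p = 0.0894). It passed without KO replicate 3 (0.20, adjusted p = 0.023) and with array weights (0.19, 0.0206). With the authors' table it was 0.02 (adjusted p = 0.934). Htra2, a mitochondrial serine protease, was at 10.39, 10.36 and 10.35 in KO and 10.38, 10.41 and 10.58 in WT, a difference of -0.09 (95% interval -0.25 to 0.07). Aifm1, the flavoprotein AIF, was at 9.60, 9.62 and 9.07 in KO and 9.60, 9.31 and 9.55 in WT, overlapping, with a difference of -0.06 (95% interval -0.42 to 0.30). Apaf1, the scaffold of the apoptosome, and Endog, a mitochondrial nuclease, were near background on every array, and nothing can be said of their change.

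Of the 4 caspase inhibitors 1 was lower and none was higher. Birc2, which encodes the ubiquitin ligase cIAP1, was at 7.70, 7.80 and 7.29 in KO and 8.29, 8.06 and 8.21 in WT. The groups did not overlap, with KO replicate 3 lowest, and the difference was -0.59 (SE 0.13, limma adjusted p = 0.0154), the lowest of the 37 genes. The call was lost with median scaling (-0.43, adjusted p = 0.16), offset 0 (-0.76, 0.0751), the authors' table (-0.74, 0.163; floored 0.175) and without WT replicate 1 (-0.54, 0.0716) or WT replicate 3 (-0.58, 0.0648). Birc3, which encodes the related cIAP2 and is the next protein-coding gene on chromosome 9, was at 6.71, 6.59 and 6.25 in KO and 6.31, 6.33 and 6.20 in WT. It was above background on 2 of 3 KO arrays and 2 of 3 WT arrays, and differed by 0.24 (adjusted p = 0.215), or 0.38 without KO replicate 3 (adjusted p = 0.0017). Whether the 2 neighbours differed from each other was not tested. Cflar, the gene of c-FLIP, was at 6.84, 6.81 and 6.70 in KO and 6.57, 6.62 and 6.64 in WT. All KO values were above all WT values, but the difference of 0.17 did not pass (adjusted p = 0.0852; 0.0166 without KO replicate 3). Xiap, the most direct inhibitor of executioner caspases, was near background on every array.

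Of the death receptor ligand and adaptors 1 of 3 was lower. Cradd, the adaptor RAIDD that brings caspase-2 into the PIDDosome, was at 8.14, 8.22 and 8.57 in KO and 8.80, 8.86 and 8.99 in WT. It fell by 0.57 on the log2 scale (difference -0.57, SE 0.12, limma adjusted p = 0.00917), and its intensities before normalization did not overlap either, at 273, 284 and 321 in KO and 350, 391 and 382 in WT. The call was lost with offset 0 (-0.66, adjusted p = 0.0628), the spot median (-0.49, 0.0784) and the authors' table (-0.63, 0.0881; floored 0.0616). Cradd and Casp2, whose proteins act in 1 complex, were both called lower in the reported fit. Casp2 lost its call under 6 other settings and Cradd under 4, and a joint change was not tested. Fadd, the adaptor of Fas, was at 8.43, 8.54 and 8.73 in KO and 8.38, 8.27 and 8.34 in WT. Its difference of 0.24 did not pass (adjusted p = 0.0871), but it did with arrays scaled to their medians (0.39, 0.00454) or with KO replicate 1 left out (0.30, 0.0411). Fasl, the ligand, was near background on every array.

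Of the 3 genes for nuclear caspase substrates or their partners, Parp1, which encodes a DNA repair polymerase cleaved during apoptosis, was lower. It was at 7.28, 7.05 and 7.28 in KO and 7.41, 7.53 and 7.76 in WT, and the difference of -0.36 (SE 0.11, limma adjusted p = 0.0447) was the weakest call of the 9. It was lost under 10 of the 18 other settings, among them leaving out KO replicate 1, KO replicate 2, WT replicate 2 or WT replicate 3 (adjusted p = 0.0632, 0.136, 0.11 and 0.136). Before normalization the intensities of Parp1 overlapped, at 119, 89.2 and 100 in KO and 102, 125 and 138 in WT. Dffa, which encodes the inhibitor and chaperone of the apoptotic nuclease, was at 6.39, 6.33 and 6.59 in KO and 6.29, 6.27 and 6.26 in WT (0.16, adjusted p = 0.204). Dffb, the nuclease itself, was above background on WT replicate 1 alone and was not called (-0.17, adjusted p = 0.197).

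**Figure D4:**
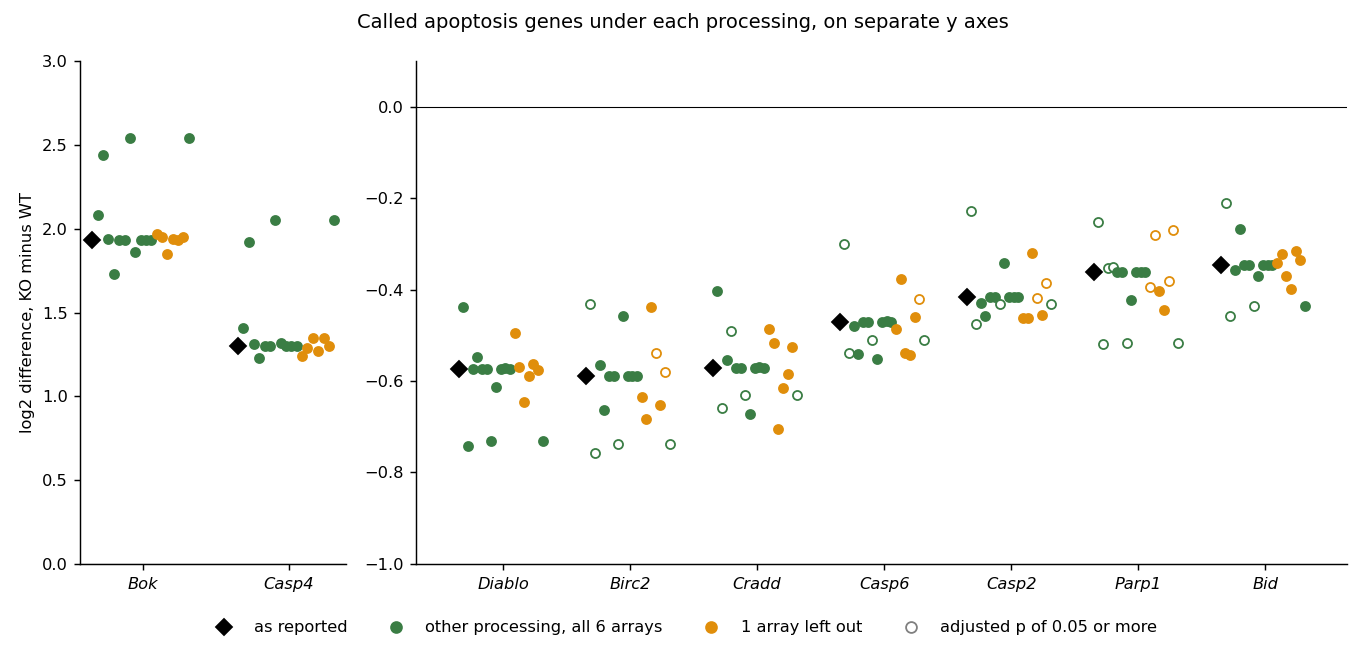
Log2 difference, KO minus WT, of the 9 called genes as reported (diamonds), under other processing with all 6 arrays (green) and with 1 array left out (orange); open symbols have an adjusted p of 0.05 or more, and the 2 panels have separate axes. Bok, Casp4 and Diablo have no open symbol, Parp1 has 10, and no gene crosses 0.

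**Figure D5:**
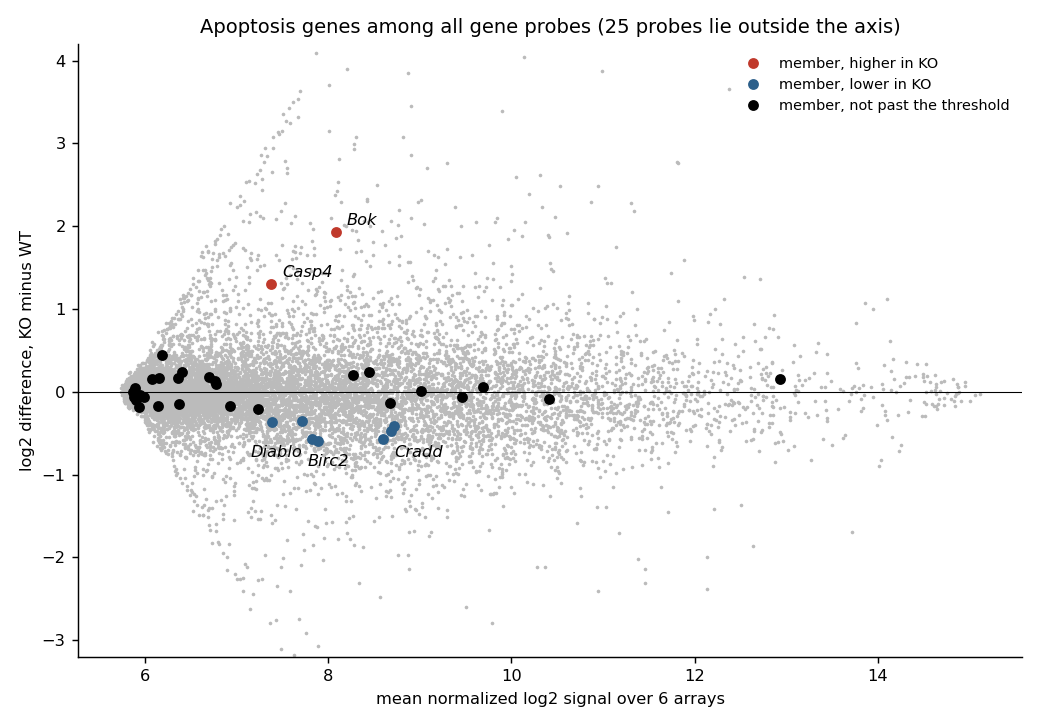
Log2 difference, KO minus WT, against mean normalized log2 signal for 19608 gene probes (grey), with the apoptosis genes in red (higher in KO), blue (lower) and black (not called); 25 probes lie outside the vertical axis. Bok and Casp4 lie well above 0, the 7 lower genes lie between -0.59 and -0.35 inside the cloud of all probes, and the cloud narrows at dim signals.

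Other genes of the pathway were read from 5 further lists, with 87 of 119 genes measured, of which 12 were higher, 21 lower and 54 not called (37.9% called). Of the 87 genes 61 were above background on all 6 arrays, and 41.0% of all such probes were called, against 22.5% of all probes. Their median difference was -0.02. Of 17 other Bcl-2 relatives and partners 5 were higher and 1 lower. Higher were Tmbim1, a Bax inhibitor motif protein (1.28, adjusted p = 1.44e-04), the mitophagy receptor Bnip3 (1.14), the co-chaperone Bag3 (0.71) and Bcap31, a protein of the endoplasmic reticulum (0.43). Of 11 other caspases and inflammasome genes 4 were lower and none higher. Among the lower were Naip5, a sensor of bacterial flagellin (-0.94, adjusted p = 0.00103), its relative Naip2 (near background on all KO arrays, at least 1.31-fold lower) and Card10 (-0.40). Naip genes are close copies of one another, and whether a probe tells them apart was not tested.

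Of 7 other inhibitors of apoptosis and their regulators 1 was higher and 3 were lower. Dad1, a subunit of the oligosaccharyltransferase, was higher by 0.58 (adjusted p = 0.00135). Api5 (-0.41) and Birc6, a giant inhibitor of apoptosis protein (-0.23, above background on 2 of 3 KO arrays), were lower. Api5 lost its call under 7 of 18 other settings, among them leaving out KO replicate 2, WT replicate 1 or WT replicate 3. Birc6 lost it under 10, among them leaving out any array but KO replicate 3. The third lower call, Septin4, was near background on every array, so its call says nothing of the gene, and it was lost under 4 settings, among them leaving out WT replicate 3. Of 22 death receptor and proximal signalling genes 3 were higher and 6 lower. Traf1, an adaptor that binds cIAP1 and cIAP2, was lower by the most, -1.31 (adjusted p = 4.01e-06). Dedd, a death effector domain protein (-0.83), and the kinase gene Ripk2 (-0.51) were lower, while the adaptor gene Traf5 was higher (0.70). Of 30 apoptosis effectors and kinases 3 were higher and 7 lower. The kinase gene Stk3, whose product MST2 is a caspase substrate, was higher by 1.13 (adjusted p = 0.00102). Trp53inp1 (-1.42), the gene of a nuclear protein, Zmat3 (-0.98), a zinc finger gene, and Perp, a gene of cell junctions (near background on all KO arrays, at least 1.30-fold lower), were lower. With the authors' table the calls of Bcap31, Card10, Dad1, Zmat3 and Perp were lost, that of Bcap31 also with offset 0 and that of Card10 also with the table floored, and Ripk2 lost its call with median scaling.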

How the data were processed

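RNA of 3 KO and 3 WT cultures was measured on CodeLink 20K mouse arrays. Per the labels each array received Cy5 and Cy3 RNA, but each deposited file holds 1 channel, which was analysed as 1-colour data of the named culture. Were it the pool's channel, the 3 arrays of each genotype would repeat a single RNA. The deposited files give spot and local background intensity, and their expression value, also an intensity, equals spot mean minus background median. In the authors' normalized value that intensity is divided by 1 constant per array. Their value table holds the same normalized values, with the columns of KO replicates 2 and 3 exchanged against the files (100% of 19767 matched rows equal within 1e-05). The names inside these 2 files are exchanged likewise, and replicate names here follow the titles. The submitters' processing notes name limma.

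Background was corrected with normexp (offset 50) in limma 3.58.1 under R 4.3.3. Masked, contaminated and irregular spots and control spots were left out, and log2 values of 19801 gene probes were quantile normalized. The fit (lmFit, eBayes, two-sided) covered 19608 probes with at least 1 value per group, with Benjamini-Hochberg adjustment over all of them. It was also run on simulated data with 1 common spread for all probes, taken from the WT arrays. That run does not cover the wider spread between KO arrays (median SD 0.14, against 0.08 in WT, for probes above background on every array). Intervals are 95% from the moderated fit. "At least N-fold" sets the brighter group against the lowest signal above background on each array of the dim one. Probes were named through unversioned accessions (10712) or a unique synonym (101) in a RefSeq gene table of GRCm38.p6. All 37 measured genes of the list are named, with Mapk14 and, from each further list, up to 4 called genes with the smallest adjusted p. From those lists 1 gene is not reported here. The genes and lists were chosen with earlier results of these data known. The number of arrays limits the precision. The settings tried were other background corrections, scaling, filters, array weights, a variance trend, the authors' table, a replicate block and leaving out each array. No slide or scan batch held more than 1 array.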

Additional observations from a re-analysis of the deposited data

How the results depend on the processing

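In the reported fit 2 apoptosis genes were higher and 7 lower, 2046 and 2374 of all gene probes, and 12 and 21 of the further pathway genes. Fewer were lower with median scaling (2 apoptosis genes, 1345 probes, 11 pathway genes), with offset 0 (1, 1331 and 12) and with the authors' table (1, 920 and 8, with 1111 probes and 5 pathway genes higher). With that table floored at 1, chosen after seeing the data, 2, 1329 and 12 were lower. With array weights 7 apoptosis genes were higher and 7 lower. Of all gene probes 2618 were then higher and 3114 lower, and of the further pathway genes 16 and 25. With 1 array left out, 2 to 8 apoptosis genes were higher and 3 to 8 lower, 1529 to 2670 and 1662 to 3157 of all probes, and 11 to 18 and 15 to 25 of the further genes. Of the apoptosis genes the most were called without KO replicate 3 (8 higher and 8 lower). The fewest were called without WT replicate 3 (2 higher and 3 lower). The difference of Bax ran from -0.281 (without KO replicate 3, adjusted p = 0.0485) to 0.273 (without KO replicate 1). Same-numbered KO and WT arrays had deviations correlated at 0.24, -0.12 and 0.097, so the numbers were not taken as pairs. With the replicate number as a block, 3 apoptosis genes were higher (Pmaip1 was added, 0.448, adjusted p = 0.0261) and 7 lower, 2028 and 2312 of all probes, and 14 and 21 of the further genes. The cause of each shift was not tested. Of the 28 genes not called, 17 kept that status under every setting that gave a value. Both filters on dim probes left out genes near background, which have no value there. For the 9 genes near background on every array, a missing call shows nothing about the gene.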
